A study of Mus musculus with 4 samples.

Results

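*Cxcl12* and its receptors *Cxcr4* and *Ackr3* were described in cells of the *Prdm13* lineage sorted from the mouse neural tube. The 3 genes were the rows of the deposited expression table that carry these symbols, out of 24421 genes in all. They were chosen from earlier results of the same comparison that is described here, so their levels and differences between genotypes are given as a description with no test. The *Prdm13* GFP allele has GFP inserted in the first exon of *Prdm13*, which disrupts the gene, and all cells studied carried this allele. Embryos of a mixed ICR and C57Bl/6 background were collected at E11.5, when dorsal interneurons are being formed. Control cells came from heterozygous *Prdm13* GFP/+ embryos (Prdm13 Het) and mutant cells from homozygous *Prdm13* GFP/GFP embryos (Prdm13 Homo). GFP-positive cells were isolated by fluorescence activated cell sorting after trypsin dissociation, the RNA of several embryos was combined into 1 pool per genotype, and 2 libraries were made from each pool. No wild-type cells were compared. Replicates are therefore technical, and every standard deviation (SD), standard error (SE) and p-value holds the spread between libraries and none of the variation between embryos.

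CXCL12 is a secreted chemokine that guides migrating cells, among them neuronal precursors in the developing nervous system. CXCR4 is its signalling receptor, which acts through inhibitory G proteins, phosphoinositide 3-kinase and regulators of the cytoskeleton. ACKR3, formerly CXCR7, is an atypical receptor that binds CXCL12, does not signal through G proteins in the classical way, recruits arrestins and clears the chemokine from the surroundings of the cell.

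*Cxcr4* (gene ID 12767) lies on chromosome 1 at 128588199 to 128592299, *Ackr3* (12778) on chromosome 1 at 90203980 to 90215724 and *Cxcl12* (20315) on chromosome 6 at 117168535 to 117181368, by RefSeq on GRCm38. No other RefSeq gene overlaps any of them. The 250 bases before the annotated start of each receptor gene are shown, because the levels of these genes are what the comparison turns on. The sequences are from RefSeq on GRCm38.p6, read 5′ to 3′ in the direction of the gene. Capitals mark TATAAA, the core of the TATA box, found on either strand, where TTTATA is the same motif on the opposite strand and overlaps it in *Cxcr4*. The window of *Ackr3* is chr1:90203730-90203979 on the plus strand and that of *Cxcr4* is chr1:128592300-128592549 on the minus strand.
Ackr3: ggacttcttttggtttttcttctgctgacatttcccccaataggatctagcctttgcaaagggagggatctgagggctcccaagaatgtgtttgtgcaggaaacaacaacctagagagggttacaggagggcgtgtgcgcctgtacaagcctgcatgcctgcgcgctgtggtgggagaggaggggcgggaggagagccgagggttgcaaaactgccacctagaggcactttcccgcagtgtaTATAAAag
Cxcr4: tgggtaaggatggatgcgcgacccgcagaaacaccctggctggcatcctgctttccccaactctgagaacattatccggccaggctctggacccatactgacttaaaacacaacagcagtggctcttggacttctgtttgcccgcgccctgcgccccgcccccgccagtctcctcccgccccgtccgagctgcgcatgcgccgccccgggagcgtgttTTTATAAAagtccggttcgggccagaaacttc
Both windows held TATAAA on the strand of the gene. Its first base was 8 bases before the start of *Ackr3* and 30 bases before that of *Cxcr4*. Of the 32851 promoter windows of this length, 12.4% held it on either strand and 7.59% on the strand of the gene. CANNTG, the E-box letters that basic helix-loop-helix factors such as PTF1A can bind, was in neither window and in 66.2% of all windows. These matches describe letters in the windows and are not evidence of binding.

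Levels are RPKM, reads scaled by exon length and by the size of the library, which allows genes of different length to be set side by side. Whole reads recovered from the RPKM values summed to between 11728031 and 18663815 per library. Intervals given for reads cover counting error only. *Prdm13* itself, the targeted gene, was at 114 and 127 RPKM in the Prdm13 Het libraries and at 310 and 324 RPKM in the Prdm13 Homo libraries. Since RNA of the disrupted gene was counted in Prdm13 Homo, a fall of *Prdm13* could not serve to check the labels. The sorted cells carried the RNA of dorsal neural tube neurons and their precursors. All 12 genes of that list reached a mean of 1 RPKM in Prdm13 Het or in Prdm13 Homo. *Lbx1*, a factor of dorsal neurons and their precursors, was at 59.7 to 106 RPKM. *Tubb3*, a neuronal tubulin, was at 1017 to 1372 RPKM and *Elavl3*, a neuronal RNA-binding protein, at 124 to 146 RPKM.

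*Ackr3* alone of the 3 genes had libraries that did not overlap between genotypes. Of all 12046 genes tested (those that reached a mean of 1 RPKM in Prdm13 Het or in Prdm13 Homo), 62.1% did not overlap, 31.7% with higher and 30.3% with lower values in Prdm13 Homo, and 6.33% passed an adjusted p under 0.05 with a fold of 1.5 or more, 3.65% higher and 2.67% lower in Prdm13 Homo. Nothing is read from the count of members, since this contrast chose them. It was at 49.1 and 46.6 RPKM in the Prdm13 Het libraries and at 76.0 and 75.3 RPKM in the Prdm13 Homo libraries. Both Prdm13 Homo libraries lay above both Prdm13 Het libraries. The means were 47.8 ± 1.75 RPKM and 75.6 ± 0.50 RPKM (SD, n = 2 libraries each), which is a ratio of 1.58, and the ratios between single libraries ran from 1.53 to 1.63. On the log2(RPKM + 0.1) scale the difference was 0.66 ± 0.05 (SE). Of the genes tested, 446 had a larger positive difference than *Ackr3*. In bulk RNA, more cells with *Ackr3* RNA and more of it per cell cannot be told apart. The recovered reads of *Ackr3* were 1317 and 1980 in the Prdm13 Het libraries and 2864 and 2387 in the Prdm13 Homo libraries, for which counting alone gives an error of 1.87 to 2.76% of the value. The libraries of a genotype had a coefficient of variation of 3.66% in Prdm13 Het and 0.662% in Prdm13 Homo.

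*Cxcr4* was high in both genotypes. It was at 69.7 and 60.4 RPKM in the Prdm13 Het libraries and at 64.7 and 66.7 RPKM in the Prdm13 Homo libraries, so that both Prdm13 Homo values lay inside the range of the Prdm13 Het values. The means were 65.1 ± 6.59 RPKM and 65.7 ± 1.47 RPKM (SD, n = 2 libraries each), with a log2 difference of 0.02 ± 0.07 (SE). The sign of this difference turned with quantile normalization, where it was -0.02, and with single libraries left out, where it ran from -0.09 to 0.12. The Prdm13 Het libraries differed from each other by more than counting allows. Their coefficient of variation was 10.1%, whereas reads of 1464 and 2008 give a counting error of 2.61 and 2.23%. In the Prdm13 Homo libraries, with 1907 and 1656 reads, it was 2.24%.

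*Cxcl12*, the ligand, was at 0.241 and 0.312 RPKM in the Prdm13 Het libraries and at 0.266 and 0.255 RPKM in the Prdm13 Homo libraries. The ranges overlapped, and the gene was under the minimum of 1 RPKM, so it was not among the genes tested. Its recovered reads were 20 (exact 95% Poisson interval 12.2 to 30.9) and 41 (29.4 to 55.6) in the Prdm13 Het libraries and 31 (21.1 to 44.0) and 25 (16.2 to 36.9) in the Prdm13 Homo libraries, all above a detection limit of 3 reads. The log2 difference was -0.06 ± 0.14 (SE from the spread of its own libraries), and it was 0.08 without replicate 2 of Prdm13 Het. In each library *Cxcr4* RNA was 193 to 289 times the level of *Cxcl12* RNA per exon length. This factor rests on few *Cxcl12* reads and on solved exon lengths of 7161 bases for *Cxcl12* and 1814 for *Cxcr4*. It changes with the length used. The ranks of the genes by mean RPKM among the 24421 genes were 1127 in Prdm13 Het and 1145 in Prdm13 Homo for *Cxcr4*, 1664 and 972 for *Ackr3*, and 13579 and 13677 for *Cxcl12*.

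**Figure D1:**
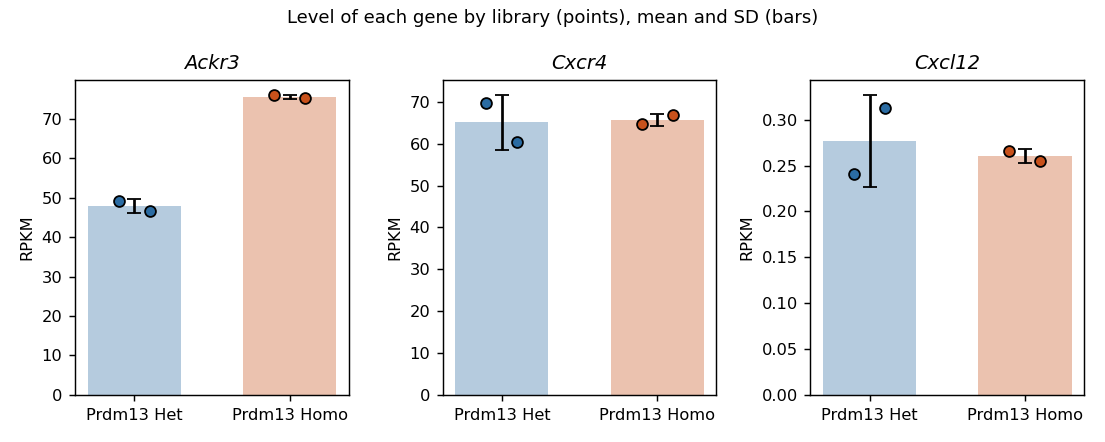
RPKM of *Ackr3*, *Cxcr4* and *Cxcl12* (vertical axes, each with its own scale from 0) in the 2 libraries of each genotype. Points are libraries, bars the mean and whiskers the SD; the *Ackr3* points of Prdm13 Homo, at 76.0 and 75.3, lie above those of Prdm13 Het, while the points of *Cxcr4* and *Cxcl12* overlap between genotypes.

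The balance between the receptors was followed in each library, where depth and scaling cancel. The ratio of *Ackr3* to *Cxcr4* in RPKM was 0.704 and 0.771 in the Prdm13 Het libraries and 1.17 and 1.13 in the Prdm13 Homo libraries. *Cxcr4* was thus the higher of the pair in both Prdm13 Het libraries and *Ackr3* in both Prdm13 Homo libraries. As group values the ratio was 0.738 ± 0.0478 in Prdm13 Het and 1.15 ± 0.0334 in Prdm13 Homo (SD, n = 2 libraries each), which is 1.56 times higher. The ratio of whole reads, with no length term, was 0.900 (exact 95% binomial interval 0.834 to 0.970) and 0.986 (0.926 to 1.05) in the Prdm13 Het libraries. It was 1.5 (1.42 to 1.59) and 1.44 (1.35 to 1.54) in the Prdm13 Homo libraries. The read ratio equals the RPKM ratio times a fixed ratio of lengths, and the intervals describe counting error only. Exon lengths solved from the RPKM values were 2319 bases for *Ackr3* and 1814 bases for *Cxcr4*, beside 2321 and 1808 annotated exon bases within the RefSeq bounds of these genes. GENCODE places the end of *Ackr3* further downstream, which gives 3065 exon bases, beside 1805 for *Cxcr4*. With the GENCODE lengths applied to the same reads the ratio was 0.530 and 0.581 in the Prdm13 Het libraries and 0.884 and 0.849 in the Prdm13 Homo libraries, all under 1. The solved length of *Ackr3* is near the RefSeq one, and the authors counted reads on RefSeq exons. The GENCODE length thus adds bases over which no read was counted. These ratios set *Ackr3* too low for the reads counted and are not an equal alternative. At the solved lengths *Ackr3* was the higher in both Prdm13 Homo libraries. The sum of both receptors was 119 and 107 RPKM in the Prdm13 Het libraries and 141 and 142 RPKM in the Prdm13 Homo libraries. *Ackr3* made up 41.3 and 43.5% of this sum in the Prdm13 Het libraries and 54.0 and 53.0% in the Prdm13 Homo libraries.

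**Figure D2:**
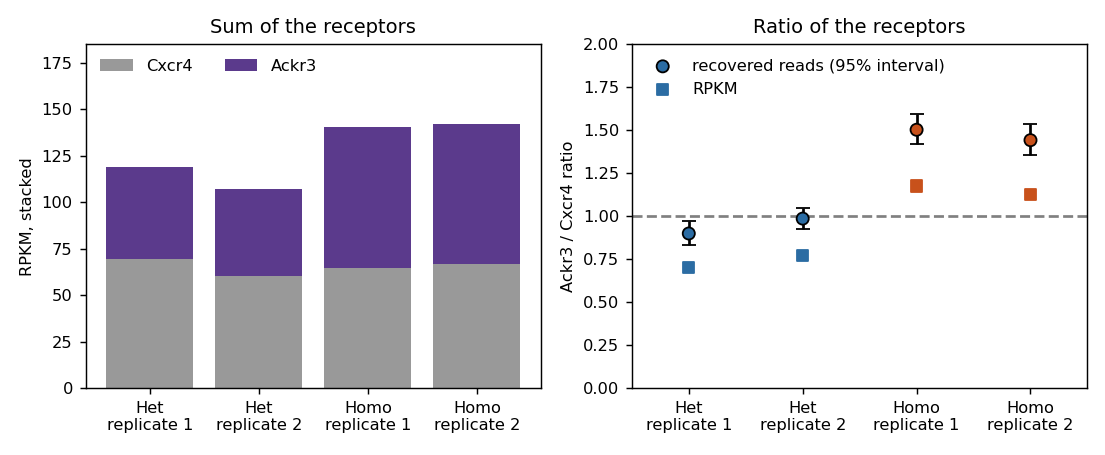
Left, RPKM of *Cxcr4* and *Ackr3* stacked for each library; right, the ratio of *Ackr3* to *Cxcr4* by RPKM (squares) and by recovered reads (circles, whiskers the exact 95% binomial interval) with a dashed line at a ratio of 1. Both squares of Prdm13 Het lie under 1, at 0.704 and 0.771, and both of Prdm13 Homo above it, at 1.17 and 1.13.

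Other chemokines and chemokine receptors were read in the same libraries from a list of 58 genes, 22 of them receptors. Of these 58 genes, 19 were at 0 in all 4 libraries, 24 had at least 3 reads in some library, and 6 others besides the members reached a mean of 1 RPKM in either genotype. Among the 61 genes that include the members, *Cxcr4* and *Ackr3* held the first 2 places by RPKM in every library, with *Cxcr4* first in Prdm13 Het and *Ackr3* first in Prdm13 Homo. The third was *Ackr1*, an atypical receptor that binds many inflammatory chemokines, and the fourth *Ccl27a*, a chemokine known from skin. Among the 18 other classical chemokine receptors, *Cxcr2* alone reached 1 RPKM in a library.

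Calls on these and the following genes used the same adjusted p (limma, Benjamini-Hochberg over 12046 genes, two-sided) and fold. Of the 6 chemokine system genes tested, 2 were called higher and 1 lower, which is 50.0% beside 6.33% of all genes tested. The share rests on few genes, and nothing is read from it. The median log2 difference of these genes was 0.12 beside 0.01 over all genes tested. *Ackr1* rose from 9.18 and 9.28 RPKM in the Prdm13 Het libraries to 15.1 and 14.5 RPKM in the Prdm13 Homo libraries. Its log2 difference was 0.67 ± 0.06 (SE, adjusted p = 0.000768, limma). *Ackr1* shares 361 of 1405 annotated exon bases with *Cadm3*, a neuronal adhesion molecule on the same strand that was at 19.1 and 20.5 RPKM in Prdm13 Het and 25.3 and 26.0 RPKM in Prdm13 Homo, so the *Ackr1* value is uncertain. *Cx3cl1*, the membrane-bound chemokine fractalkine, rose from 2.25 and 2.00 RPKM to 4.97 and 5.28 RPKM, a log2 difference of 1.23 ± 0.11 (SE, adjusted p = 0.00076, limma). *Cx3cr1*, its receptor, reached no more than 0.160 RPKM in any library. *Ccl19*, a ligand of CCR7, was at 2.52 and 2.50 RPKM in the Prdm13 Het libraries and at 1.62 and 1.07 RPKM in the Prdm13 Homo libraries. It was called lower with a log2 difference of -0.88 ± 0.21 (SE, adjusted p = 0.0308, limma), from 21 to 66 reads a library, and the call was lost without replicate 1 or 2 of Prdm13 Het or replicate 2 of Prdm13 Homo, at an adjusted p of 0.102 to 0.127, and with eBayes without a trend, at 0.0638. *Ccl27a* was at 5.71 and 5.65 RPKM in Prdm13 Het and 7.08 and 6.92 RPKM in Prdm13 Homo and stayed under the fold of 1.5. *Ccl19* and *Ccl27a* have near-identical copies in the mouse genome, which makes their counts uncertain. *Ccl25*, a thymic and gut chemokine, was at 2.46 to 3.19 RPKM and *Cxcr2*, the neutrophil receptor of CXC chemokines, at 0.961 to 1.70 RPKM, each with overlapping genotypes and not called.

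**Figure D3:**
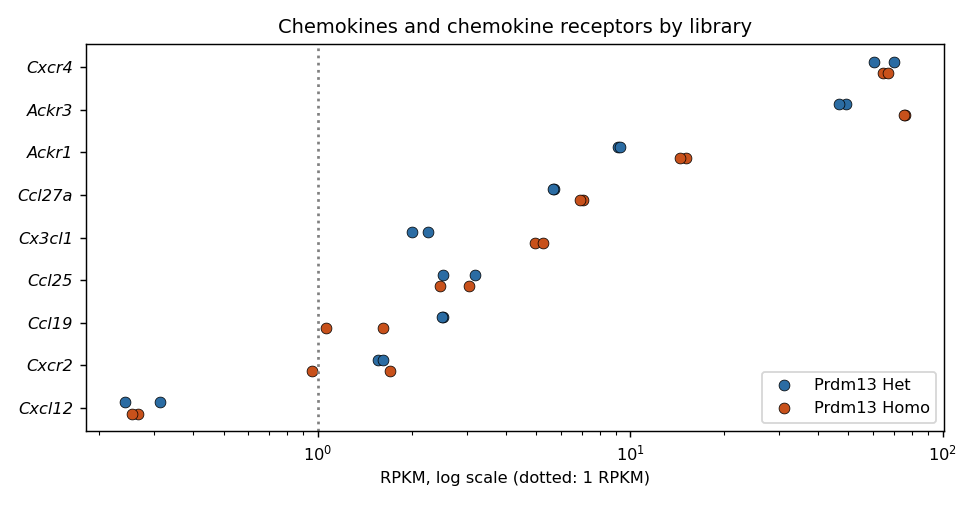
RPKM (horizontal log axis) in each library of the 3 members and of the 6 other chemokine system genes with a mean of at least 1 RPKM in either genotype; blue points are Prdm13 Het, orange points Prdm13 Homo. *Cxcr4* and *Ackr3* stand above 46 RPKM in every library, *Ackr1* is next at 9.18 to 15.1 RPKM, and *Cxcl12* is at 0.241 to 0.312 RPKM.

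Genes that act with these receptors were read from a list of 74, in 6 roles, of which 62 were tested. By the call rule 1 rose and 2 fell, which is 4.84% of those tested beside 6.33% of all genes, and their median log2 difference was 0.07 beside 0.01. Without the fold of 1.5, at an adjusted p under 0.05 alone, 16 were higher and 3 lower in Prdm13 Homo, where 9.76% of all genes tested were higher and 9.95% lower (19.7% in all). The 16 were 25.8% of the 62.

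Other ligands and peptidases included 5 genes tested of 11, with no call. *Hmgb1*, a chromatin protein that can form a complex with CXCL12 outside the cell, was at 452 to 495 RPKM and *Mif*, another ligand of both receptors, at 430 to 509 RPKM, each with a log2 difference of 0.09. *Dpp4*, the peptidase that cuts CXCL12, and *Adm*, a peptide that ACKR3 can bind, were under the minimum of 1 RPKM. All 13 G protein genes were tested and none was called, while 4 were higher by the adjusted p alone (30.8% beside 9.76% of all genes tested). *Gnai2*, an inhibitory alpha subunit through which CXCR4 signals, was at 257 and 260 RPKM in Prdm13 Het and 308 and 315 RPKM in Prdm13 Homo, a log2 difference of 0.27 ± 0.04 (SE, adjusted p = 0.00631, limma). *Gnb1*, a beta subunit, was at 222 to 241 RPKM and its groups differed by 0.07 on the log2 scale (adjusted p = 0.305, limma).

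Among receptor kinases, arrestins and RGS proteins, *Rgs3* was the gene called higher, out of 10 tested. RGS3 speeds the hydrolysis of GTP on G protein alpha subunits and so shortens signalling of receptors such as CXCR4. *Rgs3* was at 8.56 and 9.31 RPKM in the Prdm13 Het libraries and at 15.0 and 15.7 RPKM in the Prdm13 Homo libraries, with no overlap. The log2 difference was 0.77 ± 0.07 (SE, adjusted p = 0.000768, limma). *Adrbk2*, which encodes the receptor kinase GRK3, was at 2.21 and 1.99 RPKM in Prdm13 Het and at 3.28 and 2.98 RPKM in Prdm13 Homo. It was just under the fold of 1.5 with a log2 difference of 0.55, and was chosen for mention after its values were seen. *Arrb2*, beta-arrestin 2, which both receptors recruit, was at 29.7 and 29.1 RPKM in Prdm13 Het and 33.8 and 35.5 RPKM in Prdm13 Homo, a log2 difference of 0.23 ± 0.05. *Grk6*, another receptor kinase, was at 30.9 to 33.2 RPKM.

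The 6 ubiquitin and endosomal sorting genes, which carry internalised CXCR4 towards lysosomes, were all tested and none was called. *Hgs* was at 41.6 to 49.6 RPKM and *Vps4a* at 39.1 to 41.8 RPKM, with overlapping genotypes for the latter. Of 12 kinases and phospholipases tested, 2 were called, both lower (16.7% beside 6.33% of all genes). *Plcb1*, a phospholipase C driven by G proteins, fell from 3.24 and 3.27 RPKM to 0.821 and 0.740 RPKM, a log2 difference of -1.93 ± 0.16 (SE, adjusted p = 0.00053, limma). *Pik3r5*, a regulatory subunit of the phosphoinositide 3-kinase that answers to G protein beta-gamma subunits, was at 1.92 and 2.38 RPKM in Prdm13 Het and 0.916 and 1.22 RPKM in Prdm13 Homo. It was called lower with a log2 difference of -0.95 ± 0.21 (SE, adjusted p = 0.024, limma), and this call was lost when any 1 of the 4 libraries was left out, at an adjusted p of 0.0544 to 0.107. *Pik3cg*, the catalytic partner of that subunit, was at 0.025 RPKM or less. *Akt1*, a kinase downstream of phosphoinositide 3-kinase, was at 102 and 109 RPKM in Prdm13 Het and 140 and 146 RPKM in Prdm13 Homo, a log2 difference of 0.44 ± 0.05 that was under the fold of 1.5.

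Adhesion adaptors and actin regulators had 16 genes tested of 18 and no call. By the adjusted p alone 7 were higher in Prdm13 Homo (43.8%) and none lower, beside 9.76% higher and 9.95% lower of all genes tested. The median log2 difference of the role was 0.15. *Cfl1*, the actin-severing protein cofilin, was at 935 and 940 RPKM in Prdm13 Het and 1078 and 1072 RPKM in Prdm13 Homo, a log2 difference of 0.20 ± 0.04 (SE, adjusted p = 0.0151, limma). *Rac1*, a GTPase of the cytoskeleton, was at 121 to 132 RPKM with a log2 difference of 0.10 (adjusted p = 0.16, limma).

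**Figure D4:**
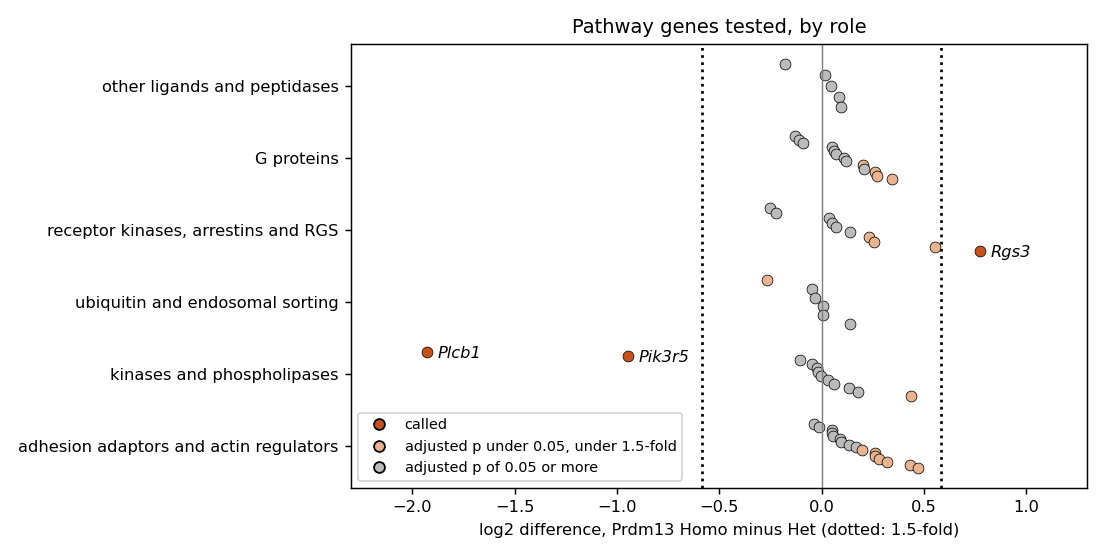
Log2 difference between genotypes (horizontal axis, Prdm13 Homo minus Het) of the 62 pathway genes tested, in rows by role; dark points were called, pale points met only the adjusted p, grey points met neither, and dotted lines mark the fold of 1.5. *Rgs3* at 0.77 stands to the right of the lines and *Plcb1* at -1.93 and *Pik3r5* at -0.95 to their left.

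The genes with the pattern most like that of each receptor over the 4 libraries were found by the Euclidean distance between log2 values centred on each gene's mean, among 12045 others. For *Ackr3* they were *Atp2b4*, a calcium pump, at a distance of 0.0130, then *Kbtbd11*, *Asap3*, *Cyfip2* and *Vit*, up to a distance of 0.0503. *Atp2b4* was at 4.31 and 4.10 RPKM in Prdm13 Het and 6.81 and 6.70 RPKM in Prdm13 Homo, and *Cyfip2*, which encodes a part of the complex that controls actin branching, at 22.7 and 21.9 RPKM and 34.2 and 34.7 RPKM. For *Cxcr4* they were *Gtf3c6*, *Ptpra*, *Cxx1c*, *Naca* and *Abhd2*, at distances of 0.0108 to 0.0230. Each was, like *Cxcr4*, highest in replicate 1 and lowest in replicate 2 of Prdm13 Het. *Ptpra*, a receptor tyrosine phosphatase, was at 24.1 and 21.1 RPKM in Prdm13 Het and 22.3 and 23.0 RPKM in Prdm13 Homo. The search ran on these 4 values, so the likeness of the genes found follows from it and is no separate result. Counting error was not taken into account, so nothing is read from the order of the genes.

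Genes of the neuron types in the sort differed with genotype as well. Of the 12 dorsal neural tube genes, 2 were called higher and 4 lower, which is 50.0%. Of all genes tested 6.33% were called, 3.65% higher and 2.67% lower. The paper lists *Tlx3*, *Ptf1a*, *Lhx1*, *Lhx5* and *Gsx1* among genes that differ in these same data. The list was made with earlier results known, so nothing is read from its share. *Tlx3*, which marks excitatory dorsal neurons, was at 4.63 and 5.63 RPKM in Prdm13 Het and 86.2 and 94.1 RPKM in Prdm13 Homo, and *Ptf1a*, a factor of inhibitory dorsal neurons, at 15.0 and 17.0 RPKM and 58.6 and 54.4 RPKM. *Lhx1* was at 121 and 131 RPKM in Prdm13 Het and 22.3 and 22.5 RPKM in Prdm13 Homo, and its relative *Lhx5* was lower by 2.12 on the log2 scale. In the paper LHX1/5 marks inhibitory dorsal interneurons that hold PAX2 and also a dorsal group without PAX2. *Lbx1* and *Gsx1*, factors of dorsal neurons and their precursors, were called lower too. The part of these shifts in the level of *Ackr3* was not tested.

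Markers of cell types outside the lineage were read in the same libraries. The 10 endothelial genes summed to 4.98 to 6.24 RPKM in Prdm13 Het and 4.58 to 5.78 RPKM in Prdm13 Homo, with *Esam* and *Cldn5* highest and none called. Singly, 7 of these endothelial genes had a log2 difference above 0 and 3 below, so their sums show no common direction. The 10 macrophage and microglia genes, led by *Fcer1g* and *C1qa*, summed to 0.422 to 1.38 RPKM in all libraries, and each was under 1 RPKM throughout. The 10 mesenchymal and meningeal genes summed to 6.58 to 7.22 RPKM in Prdm13 Het and 6.83 to 6.88 RPKM in Prdm13 Homo, *Col1a2* reached 1.70 RPKM, and *Pdgfrb*, the receptor of pericytes, was called higher at 2.48 and 2.50 RPKM against 1.17 and 1.43 RPKM. By log2 difference 8 of these 10 genes were lower in Prdm13 Homo and 2, *Pdgfrb* and *Dcn*, higher, so the sums do not show a common direction. The part of such cells in the level of *Ackr3* was not tested. The 9 erythroid genes summed to 47.3 to 48.2 RPKM in Prdm13 Het and 48.8 to 50.0 RPKM in Prdm13 Homo. Nearly all of this sum was embryonic globin led by *Hbb-y* and *Hba-x*. *Hbb-bt* and *Hba-a1* were at 0, from which no absence of adult globin RNA is read. The 7 motor neuron genes summed to 11.6 to 12.6 RPKM, with *Slit2*, which other neural tube cells also express, as the main part and *Isl2* at 0.280 to 0.383 RPKM.

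The 10 neural crest and dorsal root ganglion genes reported here summed to 46.5 and 54.3 RPKM in Prdm13 Het and to 52.7 and 56.1 RPKM in Prdm13 Homo. *Ngfr* and *Ntrk3*, receptors of neurotrophins, were called higher, with *Ntrk3* at 3.29 and 3.65 RPKM against 6.60 and 6.77 RPKM. *Foxd3* was called lower, at 10.1 and 12.8 RPKM against 4.20 and 4.25 RPKM, and *Ntrk2* stayed under the fold of 1.5. *Ngfr*, *Ntrk2*, *Ntrk3* and *Foxd3* are also expressed in the neural tube, and *Sox10*, a defining gene of the crest, was at 0.255 to 0.781 RPKM. Their part in the level of *Ackr3* was not tested.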

How the data were processed

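RNA-seq of 4 libraries was analysed, 2 from each pool of RNA. Genotype and replicate were taken from the submitters' labels. The authors aligned reads to mm10 with TopHat2 2.1.0, counted those on RefSeq exons, applied TMM scaling and deposited RPKM made with edgeR 3.6.8. Strand use in counting is not given in the sources used here. The deposited RPKM were used without further scaling, and each library column belonged to a sample. Whole reads were recovered from the RPKM steps for 19199 of 19200 genes above 0. They are the smallest whole numbers that fit unless an annotated length favours a multiple, and 71.9% of the exon lengths found were no more than 5% from that in GENCODE.

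The genes that reached a mean of 1 RPKM in Prdm13 Het or Prdm13 Homo entered 1 linear model over all 4 libraries, with log2(RPKM + 0.1) as the response, in limma 3.58.1 under R 4.3.3 (moderated by eBayes, trend on). The 3 members, the gene lists and the call rule were chosen with earlier results of these data known. Every pathway, chemokine and marker gene that was called and is reported is named, with the 2 highest genes of each pathway role and marker list, all chemokine system genes with a mean of at least 1 RPKM and the 5 genes nearest to each receptor. Genes described as under the minimum, *Adrbk2*, *Cx3cr1*, *Sox10* and *Cadm3* were added after values were seen. A further 3 listed genes, not reported here, were removed from the lists and summed levels at a late stage, with values known, but counted when the 2 highest were taken. The removed genes were 1 each from the pathway, dorsal neural tube and ganglion lists, so the sums, counts and medians of those lists hold only for the genes kept. Alternatives were other pseudocounts (1 and 0.01), no filter, median ratio scaling, quantile normalization, no trend, the replicate block, each library left out, GENCODE exon lengths (added after seeing the data), limma voom on recovered reads and no fold threshold. Plots were drawn with matplotlib 3.10.9.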

Additional observations from a re-analysis of the deposited data

How the results depend on the processing

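The log2 difference of *Ackr3* was 0.61 to 0.70 under all 12 alternatives, lowest at 0.61 with quantile normalization, a shift larger than the SD between its libraries, and it was 0.62 to 0.70 with single libraries left out. That of *Cxcr4* stayed within -0.09 to 0.12 and that of *Cxcl12* within -0.19 to 0.08, both reached by leaving out a library of Prdm13 Het. The ratio of *Ackr3* to *Cxcr4* by reads was 0.900 and 0.986 in Prdm13 Het and 1.5 and 1.44 in Prdm13 Homo, which differs from that of RPKM by the exon lengths. With GENCODE exon lengths, chosen after seeing the data, it was 0.530 and 0.581 in Prdm13 Het and 0.884 and 0.849 in Prdm13 Homo. The GENCODE length of *Ackr3* adds bases over which no read was counted, so these ratios are not an equal alternative. Without a trend in eBayes 2 chemokine system genes were called, *Ccl19* being lost, beside 422 of all genes higher and 315 lower.

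With no filter on RPKM, no pathway or chemokine system gene was called (0 higher and 0 lower), and over all genes 30 were called higher and 14 lower, where 440 and 322 were called with the filter. More genes were tested there, and with low values among them. With limma voom on recovered reads 2 pathway genes were called higher, *Rgs3* and *Adrbk2*, beside 458 of all genes higher and 376 lower. With no fold threshold 16 pathway genes were called higher, and 1176 of all genes higher and 1199 lower. With single libraries left out, pathway genes called higher numbered 1 each time and those called lower 1, chemokine system genes 2 to 3, all genes called higher 258 to 437 and called lower 212 to 266, lowest without replicate 2 of Prdm13 Homo. A pseudocount of 1 called 334 higher and 221 lower.

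The labels share replicate numbers between genotypes, and differences between replicates 1 and 2 correlated at 0.0475 across 12046 genes. Much of such a difference can be counting error, so this value cannot tell whether libraries of the same number shared a batch. With the replicate block the difference of *Ackr3* was 0.66, 1 pathway gene was called higher and 2 lower, 3 chemokine system genes were called, and 459 of all genes were called higher and 342 lower. No call on a pathway or chemokine system gene changed with the block. With 2 libraries of 1 pool per genotype, differences between embryos cannot be measured. *Cxcl12*, at 20 to 41 reads, allows no fine comparison.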
